A study of Mus musculus with 72 samples.

Results

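The 41 genes described here encode the mouse centromere, the kinetochore and the spindle assembly checkpoint. They were chosen by name: for each symbol, the Ensembl transcript with the highest total over all libraries stood for the gene, and the 41 are a small part of the 45321 genes that could be given a symbol. They fall into 5 roles, with 14 genes of the inner kinetochore, 9 of the outer kinetochore, 5 of the motor and corona layer, 7 of the checkpoint, and 6 of the chromosomal passenger complex and the shugoshins. The study sequenced polyadenylated RNA of mouse embryonic stem cells that either have or lack Nup133, a subunit of the Y-complex of the nuclear pore, before and during differentiation toward neuroectoderm. The series asks what loss of this nucleoporin does to gene expression, and the Y-complex is also known to sit at kinetochores during mitosis.

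Control samples came from the line HM1 (Nup133+/+, 40 Chr, XY; 2 biological replicates) and from the blastocyst-derived line 1A4 (Nup133+/+, Sox1gfp/+, 40 Chr, XY). Knockout samples came from line 14 (Nup133-/-, 40 Chr, XY) and line 19 (Nup133-/-, likely 40 Chr, XY), both made from HM1 with CRISPR/Cas9, and from the blastocyst-derived line 319 (Nup133merm/merm and Sox1gfp/+, with 42 Chr and the karyotype XX +8 +12). The 3 knockout replicates are therefore 3 different lines, of which line 319 differs from the others in sex chromosomes and carries extra copies of chromosomes 8 and 12. All lines were kept on inactivated mouse embryonic fibroblasts in serum with LIF. Cells freed of feeders were taken at day 0, others were grown in N2B27 medium until day 2, and a further set received 1 µM all-trans retinoic acid for the last day and was taken at day 3. Both genotypes have 3 samples at each of the 3 days, and values below are listed in the order HM1 replicate 1, HM1 replicate 2 and line 1A4 for controls and lines 14, 19 and 319 for knockouts. Nothing in the labels says that the 2 HM1 replicates were thawed or grown apart, so p-values measure the spread between these samples.

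A kinetochore is assembled on centromeric chromatin that carries the histone H3 variant CENP-A. Inner kinetochore proteins, most of them named CENP, bind that chromatin throughout the cell cycle, and the outer kinetochore, built from the Mis12 and Ndc80 complexes and Knl1, is added for mitosis and holds the microtubules. Kinetochores without attached microtubules produce the checkpoint signal that keeps Cdc20 from activating the anaphase promoting complex, while Aurora B in the chromosomal passenger complex destabilises faulty attachments and shugoshins shield centromeric cohesin. Messages of many of these genes are made mainly in late S, G2 and M phase, and embryonic stem cells, which divide fast with short gap phases, hold them at high levels.

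Gene counts per sample lay between 16466724 (line 19, day 2) and 54386795 (line 14, day 3), and all 41 genes passed the filter on low counts. The targeted gene checked the labels: Nup133 stood between 179.5 and 323 CPM (counts divided by the sample's TMM-adjusted total and put on a common scale) in the 9 control samples and between 14.3 and 37.1 CPM in the 9 knockout samples. All 6 pluripotency markers examined were present in every group, and their summed level went from 3521 to 3807 CPM in day 0 controls to 448 to 514 CPM in day 3 controls, and from 4133 to 4866 CPM to 258 to 552 CPM in knockouts. Feeder fibroblast markers summed to between 62.5 and 175 CPM over all 18 samples. 12 of the 41 genes share exon sequence with a gene on the opposite strand. The counts followed strand: 6 genes of 1 exon that lie inside an exon of an opposite-strand gene held a median of 0.197% of its counts per base, against 54.7% for 3 such genes on the same strand.

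The line 19 sample of day 2, the shallowest of all, stood apart in these genes. It held 14 of the 41 above all other day 2 samples and 16 below them, and the difference followed transcript length. The 14 had a median length of 1709.5 nt and the 16 a median of 3324 nt. By count alone line 19 was not the only such sample, since line 319 at day 2 held 19 of the 41 above all others of that day and 8 below them. Each gene's deviation was taken on the log2 scale from its median over the other samples of the same day, of both genotypes. In the line 19 sample, genes with transcripts of at least 3000 nt (17 genes) had a median deviation of -0.57. Genes under 2000 nt (16 genes) had a median of 0.38. Over the 41 genes the Spearman correlation of the deviation in line 19 at day 2 with length was -0.67, where the other 17 samples ran from -0.36 to 0.54. Over all 18273 genes tested it was -0.52, where the others ran from -0.26 to 0.23. Points in these correlations are genes of 1 library and are no replicates. Where leaving out the line 19 sample of day 2 ends a call or moves a called value by more than 1.5 times, the value without it is given too. Genes that pass the test only without it are named in part.

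**Figure D1:**
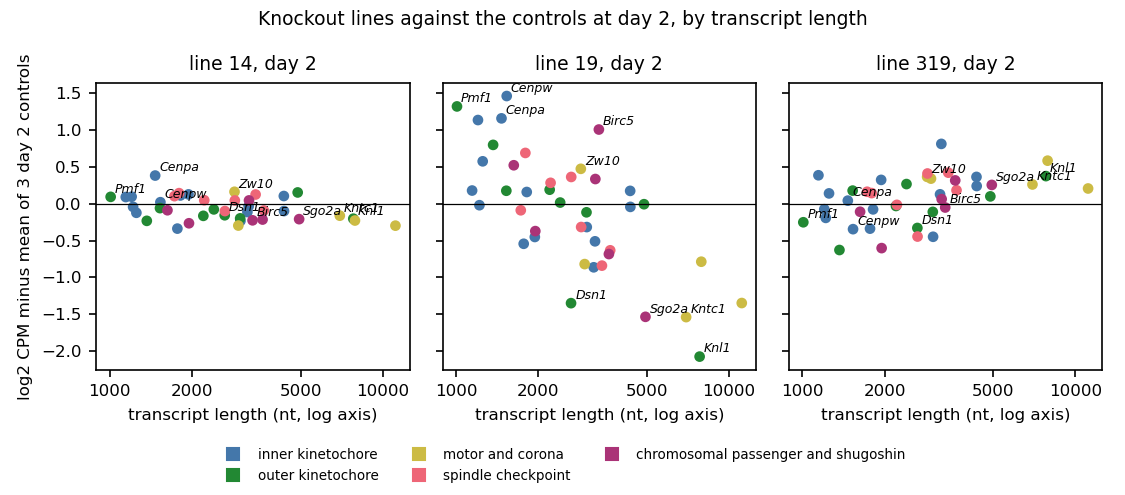
Difference on the log2 scale between each knockout line and the mean of the 3 controls at day 2 (vertical axis) against transcript length in nt (horizontal log axis), 1 point a gene, coloured by role. In line 19 short transcripts such as Pmf1 and Cenpw lie above 0 and long ones such as Knl1 and Kntc1 below it. Taken against the other samples of day 2, the Spearman correlation with length was -0.67 in line 19. It was -0.33 in line 14 and 0.54, the other way, in line 319.

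More of these genes changed between days of differentiation than between genotypes, as was true of all genes tested. Of all genes, 35.2% changed from day 0 to day 2 and 21.4% from day 2 to day 3 in controls. In knockouts these shares were 35.9% and 33.6%. At days 0, 2 and 3, 0.854%, 1.6% and 5.2% of all genes changed between genotypes. Of the 41, Aurkb, the kinase of the chromosomal passenger complex, was the 1 gene past the test between genotypes, lower in the knockouts at day 3. Zw10 stood higher and Cenpn lower in the knockouts at each day without overlap between groups. With all samples in the fit edgeR called neither, while Zw10 at day 3 passed in 4 of 13 alternatives. Between days, most changes of the 41 that passed the test were decreases, while Kntc1 and Cenpk rose from day 0 to day 2 in the controls. Summed over the 41 genes, controls held 4199 to 4556 CPM at day 0, 3915 to 4121 at day 2 and 3344 to 3587 at day 3, and knockouts held 4355 to 4880, 3827 to 4420 and 3326 to 3647 CPM. The sums of both genotypes overlapped at each day, and those of day 3 lay below those of day 0 in both. In bulk RNA, fewer dividing cells and less RNA per cell cannot be told apart.

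**Figure D2:**
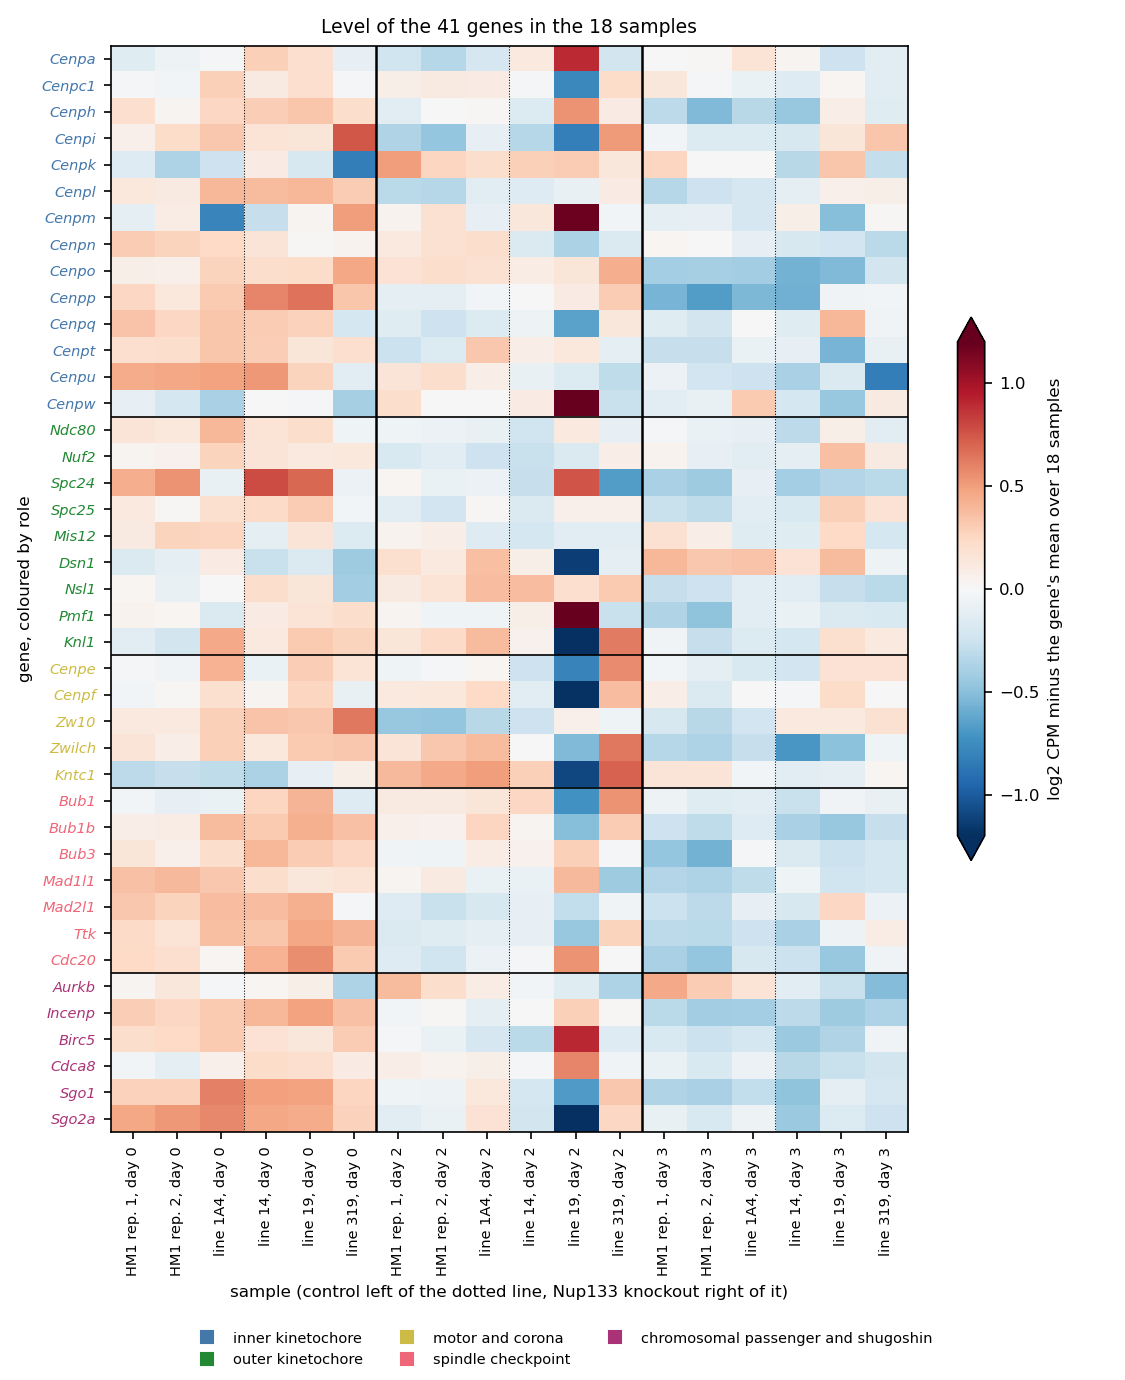
Level of each of the 41 genes (lines) in the 18 samples (columns), as log2 CPM minus the gene's own mean over all samples, grouped by role and by day. Day 0 columns are mostly red and day 3 columns mostly blue in both genotypes, and the line 19 sample of day 2 departs from the other 5 of its day in both directions.

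Levels of different genes can be compared only per length, and the following values are CPM per kilobase of the counted transcript in the 3 day 0 controls. Cdc20, the activator of the anaphase promoting complex that the checkpoint holds back, was the most abundant with 192 ± 15.2 (SD), and no other gene's range met its range. Mad2l1 (101 ± 3.73), Bub1b (92.7 ± 11.5), Cdca8 (91.7 ± 5.57) and Bub3 (85.0 ± 4.35) followed with ranges that met from one to the next, and the range of Bub3 lay above that of Incenp, the next gene. Of the 9 highest, 5 encode checkpoint proteins. At the low end were the inner kinetochore genes Cenpo (5.43 ± 0.46) and Cenpl (6.30 ± 0.75), the outer kinetochore gene Nsl1 (8.11 ± 0.33) and Cenpk (11.8 ± 0.88). Partners in 1 complex were not at 1 level: within the chromosomal passenger complex Cdca8 and Incenp (78.1 ± 1.85) lay above Aurkb (52.8 ± 2.75) and Birc5 (45.0 ± 1.57), and within the RZZ complex Zwilch (40.9 ± 2.95) lay above Zw10 (26.0 ± 1.79) and Kntc1 (13.3 ± 0.20). Which of several transcripts was counted also enters these values, since 32 of the 41 genes have more than 1.

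The comparison of knockout with control at the same day used edgeR's quasi-likelihood test on all 18 samples, with p-values adjusted over all 18273 genes by the Benjamini-Hochberg method, and a gene is said to have changed at an adjusted p below 0.05. At day 0, 0 of the 41 genes changed, where 0.854% of all genes tested did. 1 of the 41 had an unadjusted p below 0.05, beside 1946 of the 18273 genes. DESeq2 called 0 of the 41 as well, with 3.2% of the genes it tested. At day 2, 0 of the 41 changed, where 1.6% of all genes did. An unadjusted p below 0.05 was found for 7 of the 41, beside 3735 of the 18273 genes. DESeq2 called 3, namely Aurkb, Cenpn and Zw10, with 8.13% of the genes it tested. At day 3, 1 of the 41 changed, the lower Aurkb, where 5.2% of all genes changed and 2.45% were lower. DESeq2 called 2 at that day, Aurkb and Zw10, with 11.3% of all genes. With the line 19 sample of day 2 left out, edgeR called 0 of the 41 at day 0 and 0 at day 2, where it called 2.01% of all genes at either day. In that fit 7 and 5 of the 41 had an unadjusted p below 0.05, and the share of all genes at that level is not given here. The median log2 fold change of the 41 was 0.08, 0.06 and -0.02 at days 0, 2 and 3, beside 0.01, 0.02 and 0.02 over all genes tested.

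The 95% interval of the log2 fold change lay between -1 and 1 for 40 of the 41 genes at day 0, 36 at day 2 and 41 at day 3. It lay between -0.5 and 0.5 for 20, 17 and 18 genes. The lowest and highest bounds belonged to Dsn1 (-0.70) and Cenpm (1.01) at day 0 and to Knl1 (-1.12) and Cenpw (1.28) at day 2. At day 3 they belonged to Cenpw (-0.92) and Knl1 (0.92). A p that misses the threshold does not show that a gene was equal in both genotypes. The change between days also did not differ detectably by genotype: 0 of the 41 genes passed the interaction test for day 0 to day 2 (0.0219% of all genes) and 0 for day 2 to day 3 (0.0383%). 0 and 1 of the 41 had an unadjusted p below 0.05 in these tests, the 1 being Cenpa, beside 1308 and 1626 of 18273 genes. DESeq2 called 0 of the 41 in both, with 0.391% and 0.733% of the genes it tested.

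Genes whose 3 knockouts all lay on 1 side of the 3 controls were counted as well. At day 0, 7 of the 41 were higher without overlap (17.1%, beside 8.06% of all genes), namely Cenpp, Pmf1, Zw10, Bub3, Cdc20, Incenp and Cdca8, and 2 were lower (9.7% of all genes). None of these passed edgeR's test at that day. At day 2, 3 were higher (9.94%) and 4 lower (11.7%), and at day 3, 3 were higher and 3 lower (17.6% each way). Without the line 19 sample, 7 were higher (17.1%) and 7 lower (18.9%) at day 2. Zw10 was the 1 gene of the 41 higher at every day and Cenpn the 1 lower at every day, which 0.969% and 1.55% of all genes were.

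**Figure D3:**
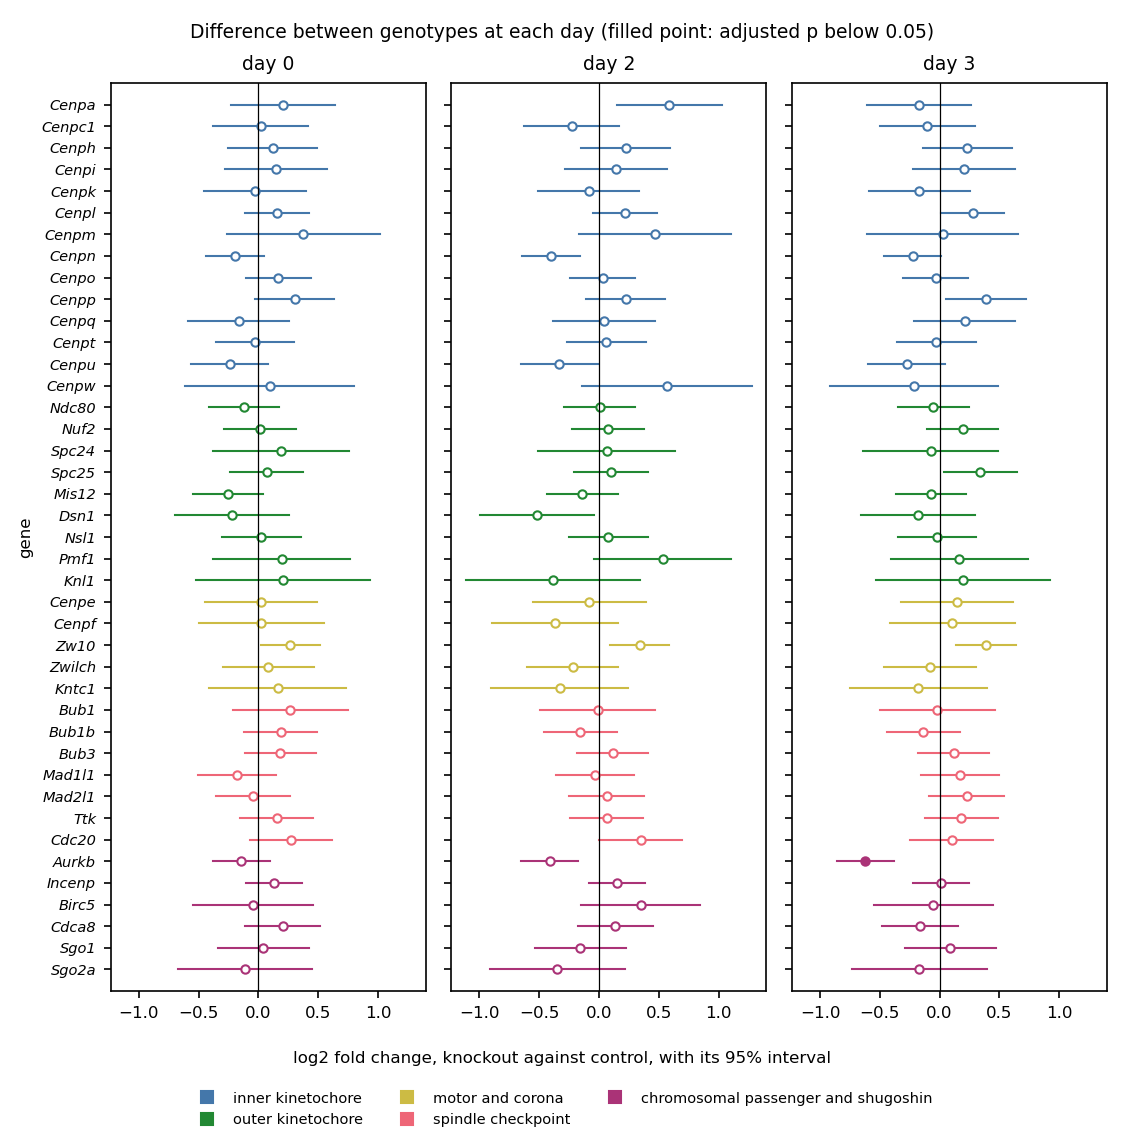
Log2 fold change of the knockouts against the controls with its 95% interval for the 41 genes at days 0, 2 and 3, ordered and coloured by role. Aurkb at day 3 carries the 1 filled point, and most intervals cross 0.

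Aurora B, encoded by Aurkb (chr11:69045647-69051664, plus strand on GRCm38), is the kinase that frees wrongly attached microtubules from kinetochores and later acts in cytokinesis. At day 0 the controls held 102, 109 and 98.3 CPM and the knockouts 101, 104 and 76.9 CPM, and the groups overlapped. At day 2 Aurkb was at 129, 115 and 106 CPM in controls and 96.8, 89.9 and 76.6 CPM in knockouts, with each knockout below each control. At day 3 the gap was wider, with 136, 123 and 111 CPM in controls and 90.2, 82.5 and 69.1 CPM in knockouts. The log2 fold change of Aurkb was -0.14 (adjusted p = 0.79) at day 0, -0.41 (adjusted p = 0.075, and -0.39 with 0.061 without line 19) at day 2 and -0.62 (standard error 0.11, adjusted p = 0.0083) at day 3, which is 0.65 times the control level. Each line against the controls of its own background gave -0.52, -0.65 and -0.69 at day 3 for lines 14, 19 and 319. Aurkb was thus lower in all 3 lines, whatever their origin. The Aurkb call at day 3 was kept in 10 of 13 alternatives and lost in the 3 that leave out 1 control replicate, with an adjusted p of 0.12, 0.095 and 0.054 without control replicates 1, 2 and 3, where the log2 fold change was -0.59, -0.67 and -0.58. In these 3 fits 0.2%, 0.0919% and 1.87% of all genes changed at day 3, beside 5.2% with all samples, so calls were lost across all genes.

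None of the other 3 subunits of the passenger complex passed the test between genotypes, and 1 of them, Cdca8, also lay below the controls in all 3 knockouts at day 3. Incenp encodes the scaffold that binds and activates Aurora B. In the controls, Incenp was counted at 254, 246 and 258 CPM at day 0, 203, 209.8 and 191 at day 2 and 166, 155 and 157 at day 3. In the knockouts, Incenp stood at 274, 290.5 and 265 CPM at day 0, 207, 254 and 210.0 at day 2 and 167, 155 and 160.4 at day 3. Incenp thus overlapped between genotypes at days 2 and 3, with log2 fold changes of 0.13, 0.15 and 0.01 at days 0, 2 and 3 (adjusted p = 0.81, 0.45 and 0.97). Within genotypes it fell at each step, by 0.33 and 0.34 on the log2 scale in controls and by 0.31 and 0.48 in knockouts. The ratio of Aurkb to Incenp, per length and on the log2 scale, was looked at after the values were seen. It went from between -0.66 and -0.45 in day 0 controls to between 0.24 and 0.45 in day 3 controls, and from between -1.06 and -0.71 to between -0.48 and -0.15 in knockouts. At day 3 the ranges of the genotypes did not meet. Aurkb alone already lay apart at that day while Incenp overlapped, so the ratio adds no separate support. In both genotypes the ratio was higher at day 3 than at day 0. Aurkb itself passed the test at neither step in either genotype.

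Birc5 (survivin), which brings the passenger complex to the centromere, was among the genes that the line 19 sample of day 2 set apart. Birc5 measured 146, 148 and 156 CPM in the day 0 controls, 124, 119 and 109 in those of day 2 and 111, 105 and 109 in those of day 3. Knockout levels of Birc5 were 142, 139 and 155 CPM at day 0, 100.5, 236 and 113 at day 2 and 92.3, 98.2 and 122 at day 3. Outside that sample, with 236 CPM, the levels of both genotypes overlapped at each day. The log2 fold changes of Birc5 between genotypes were -0.05, 0.35 and -0.05 (adjusted p = 0.99, 0.42 and 0.93), and -0.16 (adjusted p = 0.46) at day 2 without that sample. Cdca8 (borealin) was at 144, 134 and 145 CPM in the day 3 controls and 121, 126 and 131 CPM in the day 3 knockouts, with no overlap. It had log2 fold changes of 0.20, 0.14 and -0.16 (adjusted p = 0.75, 0.63 and 0.57) and fell from day 2 to day 3 in the knockouts, by 0.47 (adjusted p = 0.024). Line 19 held 228 CPM of Cdca8 at day 2, beside 149 and 147 CPM in lines 14 and 319, and without that sample the decrease was -0.24 (adjusted p = 0.038).

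The shugoshins Sgo1 and Sgo2a recruit a phosphatase that keeps centromeric cohesin in place until anaphase. In the controls, Sgo1 was counted at 94.1, 94.0 and 118 CPM at day 0, 74.6, 74.2 and 84.4 at day 2 and 60.5, 59.2 and 63.3 at day 3. In the knockouts, Sgo1 stood at 109, 109 and 92.7 CPM at day 0, 66.9, 48.3 and 96.7 at day 2 and 55.5, 72.1 and 67.4 at day 3. Both genotypes of Sgo1 went down from day 0, and the day 2 decrease passed the test in the knockouts at -0.58 (adjusted p = 0.021), with -0.39 (adjusted p = 0.11) in the controls. Sgo2a measured 143, 149 and 155 CPM in the day 0 controls, 95.5, 98.4 and 117 in those of day 2 and 97.5, 91.8 and 99.8 in those of day 3. Knockout levels of Sgo2a were 143, 142 and 126 CPM at day 0, 89.3, 35.6 and 123 at day 2 and 76.6, 92.8 and 87.7 at day 3. The 35.6 CPM of line 19 at day 2 was the lowest Sgo2a value of all. The Sgo2a decrease from day 0 to day 2 was -0.76 (adjusted p = 0.036) in knockouts and -0.53 (adjusted p = 0.14) in controls. Without the line 19 sample of day 2 it was -0.38 (adjusted p = 0.027) and -0.51 (adjusted p = 0.0016), so the knockout value moved by more than 1.5 times and both passed the test. For Sgo1 the same fit gave -0.36 (adjusted p = 0.06) in knockouts and -0.37 (adjusted p = 0.027) in controls.

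Among the 14 inner kinetochore genes, differences between genotypes were small and went both ways: 9, 10 and 6 had a positive log2 fold change at days 0, 2 and 3, with medians of 0.11, 0.10 and -0.03. None passed edgeR's test between genotypes, and DESeq2 called Cenpn at day 2. An unadjusted p below 0.05 was found for 0, 3 and 2 of them, beside 1946, 3735 and 4002 of all 18273 genes. Cenpa encodes the centromeric histone itself. In the controls, Cenpa was counted at 104, 110.2 and 113 CPM at day 0, 97.6, 90.5 and 99.8 at day 2 and 114, 116 and 129 at day 3. In the knockouts, Cenpa stood at 140.4, 133 and 107 CPM at day 0, 125, 214 and 98.8 at day 2 and 118, 97.1 and 105 at day 3. At day 2 the 214 CPM of line 19 lay far above the other samples, and at day 3 line 14 lay among the controls with lines 19 and 319 below them. The log2 fold change of Cenpa at day 2 was 0.59 (adjusted p = 0.14) with all samples and 0.23 (adjusted p = 0.38) without the line 19 sample. Cenpc1 encodes the protein that bridges CENP-A chromatin and the Mis12 complex. Cenpc1 measured 64.4, 63.6 and 79.7 CPM in the day 0 controls, 68.5, 70.2 and 70.0 in those of day 2 and 71.5, 64.3 and 61.6 in those of day 3. Knockout levels of Cenpc1 were 70.1, 75.0 and 64.5 CPM at day 0, 64.3, 38.2 and 76.0 at day 2 and 58.4, 66.2 and 59.4 at day 3. Apart from line 19 at day 2, Cenpc1 held a narrow band in all samples, with log2 fold changes of 0.02, -0.23 and -0.10 between genotypes.

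CENP-N reads CENP-A nucleosomes directly and partners CENP-L. Cenpn lies at chr8:116921730-116941507, plus strand, on the chromosome of which line 319 has an extra copy. In the controls, Cenpn was counted at 59.8, 58.2 and 57.3 CPM at day 0, 52.5, 54.9 and 55.9 at day 2 and 49.3, 48.7 and 45.3 at day 3. In the knockouts, Cenpn stood at 54.1, 48.9 and 49.9 CPM at day 0, 43.1, 37.3 and 43.0 at day 2 and 42.5, 41.2 and 38.8 at day 3. Each knockout was below each control at every day, and line 319 was no exception despite the extra copy that the labels give. The log2 fold changes of Cenpn were -0.20, -0.40 and -0.23 at days 0, 2 and 3, with adjusted p of 0.61, 0.081 and 0.26. At day 2 they ranged from -0.45 to -0.33 over 13 alternatives, of which 1, DESeq2, called it. Its partner Cenpl was not lower in the knockouts, at 0.15, 0.22 and 0.28 (adjusted p = 0.79, 0.34 and 0.21), and fell from day 0 to day 2 in controls (-0.47 (adjusted p = 0.0082)) and in knockouts (-0.41 (adjusted p = 0.018)).

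4 more genes lie on the chromosomes that differ in copy number between lines. Against line 1A4, line 319 had log2 differences of 0.42, 0.60 and 0.49 for Cenpi on chromosome X at days 0, 2 and 3. For Cenpo on chromosome 12 it had 0.20, 0.25 and 0.20. For Cenpu on chromosome 8 it had -0.62, -0.38 and -0.58, and for Cenpt, also on 8, -0.13, -0.43 and -0.02. Cenpn on 8 had -0.20, -0.38 and -0.23. The 1 gene on X and the 1 on 12 were thus higher in line 319 at each day, and the 3 on 8 were lower. Each is a comparison of single samples with no replicate check.

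Cenpo, Cenpp and Cenpu belong with Cenpq to the CENP-O group, which helps bring Polo-like kinase 1 to the kinetochore. Cenpo measured 22.5, 22.4 and 25.9 CPM in the day 0 controls, 24.3, 24.9 and 24.4 in those of day 2 and 16.3, 16.3 and 16.1 in those of day 3. Knockout levels of Cenpo were 24.9, 25.0 and 29.7 CPM at day 0, 22.9, 23.8 and 29.0 at day 2 and 14.5, 14.9 and 18.5 at day 3. Controls of Cenpo were within 1 CPM of each other at days 2 and 3, and it fell from day 2 to day 3 in both genotypes, at -0.60 (adjusted p = 0.0036) in controls and -0.66 (adjusted p = 0.0013) in knockouts. The decrease was kept in 11 and 13 of 13 alternatives. In the controls, Cenpp was counted at 28.9, 26.7 and 30.2 CPM at day 0, 22.6, 22.6 and 23.8 at day 2 and 16.6, 15.3 and 16.8 at day 3. In the knockouts, Cenpp stood at 36.4, 38.3 and 30.8 CPM at day 0, 24.5, 26.0 and 30.0 at day 2 and 16.3, 23.7 and 23.8 at day 3. Cenpp fell over the same step in the controls, at -0.50 (adjusted p = 0.032), and had -0.34 (adjusted p = 0.11) in the knockouts, where lines 19 and 319 kept 23.7 and 23.8 CPM at day 3. Its genotype difference at day 3 was 0.39 (adjusted p = 0.16), with line 14 among the controls.

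Cenpu measured 41.4, 41.9 and 42.5 CPM in the day 0 controls, 33.7, 35.2 and 32.0 in those of day 2 and 28.8, 25.8 and 25.6 in those of day 3. Knockout levels of Cenpu were 43.5, 36.5 and 27.7 CPM at day 0, 28.6, 27.0 and 24.6 at day 2 and 23.1, 26.9 and 17.1 at day 3. Cenpu was below the controls in all 3 knockouts at day 2 and in line 319 at each day, and its log2 fold changes between genotypes were -0.24, -0.33 and -0.27 (adjusted p = 0.65, 0.23 and 0.31). From day 0 to day 2 it fell in the knockouts at -0.41 (adjusted p = 0.043), beside -0.32 (adjusted p = 0.11) in controls, and the knockout value was -0.36 (adjusted p = 0.074) without line 19 at day 2. Cenpk, of the CENP-H, -I, -K and -M group, went the other way. In the controls, Cenpk was counted at 15.4, 13.2 and 14.4 CPM at day 0, 24.3, 20.5 and 19.9 at day 2 and 20.5, 17.2 and 17.2 at day 3. In the knockouts, Cenpk stood at 18.3, 15.0 and 9.67 CPM at day 0, 20.9, 21.2 and 18.8 at day 2 and 13.6, 21.5 and 14.1 at day 3. All 6 series of samples held more Cenpk at day 2 than at day 0. It rose in the controls at 0.58 (adjusted p = 0.032) and had 0.52 (adjusted p = 0.052) in the knockouts. None of its group partners passed the test over that step in controls with all samples in the fit. Cenph had -0.20 (adjusted p = 0.41) and Cenpi -0.51 (adjusted p = 0.058). Without the line 19 sample of day 2, Cenpi passed at -0.49 (adjusted p = 0.014). Cenpm had 0.28 (adjusted p = 0.5) and was higher at day 2 than at day 0 in the 3 controls.

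Of the inner kinetochore genes not given sample by sample, Cenph, Cenpi, Cenpq and Cenpt had log2 fold changes between genotypes of at most 0.23 in size at every day. Cenpw, the histone-fold partner of CENP-T, had 0.57 (adjusted p = 0.35) at day 2, where line 19 held 70.0 CPM and the other 5 samples 20.0 to 28.0 CPM. Without that sample it had -0.15 (adjusted p = 0.74). The same sample held 45.2 CPM of Cenpm, beside 18.7 to 22.6 CPM in the others, and the genotype difference of Cenpm at day 2 went from 0.47 (adjusted p = 0.39) to 0.02 (adjusted p = 0.99) without it.

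Outer kinetochore genes, which encode the microtubule-binding machinery, did not change between genotypes by edgeR's test at any day. 0, 1 and 1 of the 9 had an unadjusted p below 0.05 at days 0, 2 and 3, beside 1946, 3735 and 4002 of all 18273 genes. DESeq2 called 0 of the 9, and the medians of their log2 fold changes were 0.02, 0.06 and -0.02. Ndc80, the subunit that contacts the microtubule, was lower at day 2 than at day 0 in all 6 series. Ndc80 measured 85.5, 83.7 and 101 CPM in the day 0 controls, 74.1, 72.9 and 72.1 in those of day 2 and 75.6, 72.7 and 71.6 in those of day 3. Knockout levels of Ndc80 were 85.8, 89.0 and 73.9 CPM at day 0, 65.2, 83.4 and 71.5 at day 2 and 61.6, 80.3 and 70.4 at day 3. Day 0 levels of Ndc80 were above those of days 2 and 3 in the controls, and the step to day 2 had -0.30 (adjusted p = 0.1) with all samples and -0.28 (adjusted p = 0.047) without line 19 at day 2. Between genotypes its log2 fold changes were -0.12, 0.01 and -0.05. Spc25 sits at the other end of the Ndc80 complex, toward the chromosome. In the controls, Spc25 was counted at 75.4, 70.2 and 79.1 CPM at day 0, 63.4, 59.1 and 70.1 at day 2 and 57.5, 56.1 and 63.0 at day 3. In the knockouts, Spc25 stood at 81.6, 85.8 and 67.7 CPM at day 0, 61.5, 72.4 and 72.5 at day 2 and 61.0, 84.4 and 78.1 at day 3. Lines 19 and 319 were above the 3 controls at days 2 and 3 and line 14 was among them, which gave 0.34 (adjusted p = 0.18) at day 3.

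Dsn1 is the subunit of the Mis12 complex that Aurora B phosphorylates to strengthen the joint with CENP-C. Dsn1 measured 29.6, 30.7 and 35.8 CPM in the day 0 controls, 38.2, 36.2 and 43.0 in those of day 2 and 44.1, 41.7 and 42.5 in those of day 3. Knockout levels of Dsn1 were 27.8, 29.6 and 24.9 CPM at day 0, 35.0, 15.3 and 31.1 at day 2 and 37.6, 43.6 and 32.0 at day 3. Each knockout lay below each control at day 2, with the 15.3 CPM of line 19 the lowest value. The genotype difference at that day was -0.52 (adjusted p = 0.21), and -0.24 (adjusted p = 0.4) without the line 19 sample. Nsl1, another Mis12 complex subunit, stood out by its time course. In the controls, Nsl1 was counted at 40.7, 37.7 and 40.3 CPM at day 0, 43.4, 44.9 and 51.8 at day 2 and 33.1, 33.9 and 36.5 at day 3. In the knockouts, Nsl1 stood at 46.5, 44.5 and 30.1 CPM at day 0, 51.8, 46.4 and 49.9 at day 2 and 36.8, 33.1 and 32.2 at day 3. Levels of Nsl1 were higher at day 2 than at day 0 in all 6 series and lower at day 3 than at day 2 in all 6. The decrease from day 2 to day 3 passed the test in knockouts, at -0.54 (adjusted p = 0.015), and had -0.44 (adjusted p = 0.054) in controls. Mis12 and Pmf1, the remaining subunits, changed at neither step in either genotype with all samples in the fit.

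Knl1 is the long scaffold protein on which the Bub proteins gather. Knl1 measured 92.1, 86.8 and 138 CPM in the day 0 controls, 112, 119 and 131 in those of day 2 and 98.2, 83.2 and 89.9 in those of day 3. Knockout levels of Knl1 were 109, 125 and 122 CPM at day 0, 104, 28.5 and 156 at day 2 and 87.4, 115 and 109 at day 3. Line 19 at day 2 held 28.5 CPM of this transcript of 7800 nt, and the other 5 samples of that day held 104 to 156 CPM. Between genotypes Knl1 had 0.20, -0.39 and 0.20 at the 3 days, and 0.05 (adjusted p = 0.91) at day 2 without that sample. Nuf2 and Spc24, which complete the Ndc80 complex, had log2 fold changes between 0.01 and 0.19 and between -0.08 and 0.19. With line 19 left out at day 2, lines 14 and 319 held 45.7 and 34.7 CPM of Spc24, below the 52.3 to 56.2 CPM of the controls, and the difference was -0.39 (adjusted p = 0.32). In that fit Spc24 fell from day 0 to day 2 in knockouts, at -0.91 (adjusted p = 0.0026).

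The motor and corona layer holds the kinesin CENP-E, the coiled-coil protein CENP-F and the RZZ complex, named after Rod (encoded by Kntc1), Zw10 and Zwilch. RZZ brings dynein and the Mad1 and Mad2 proteins to kinetochores, where its 3 subunits act as 1 unit. The messages of the 3 subunits moved apart in these cells. Zw10 lies at chr9:49055613-49078775, plus strand, Kntc1 at chr5:123749716-123821593, plus strand, and Zwilch at chr9:64137144-64173104, minus strand. In the controls, Zw10 was counted at 71.3, 71.6 and 80.3 CPM at day 0, 48.3, 47.8 and 52.5 at day 2 and 57.6, 52.5 and 56.1 at day 3. In the knockouts, Zw10 stood at 83.7, 82.8 and 102 CPM at day 0, 55.4, 68.8 and 63.8 at day 2 and 71.6, 71.6 and 74.7 at day 3. Knockouts were above controls at every day without overlap, and day 2 was the low point of the controls. The log2 fold change between genotypes was 0.27 (adjusted p = 0.41) at day 0, 0.34 (adjusted p = 0.13, and 0.24 with 0.2 without line 19) at day 2 and 0.39 (standard error 0.12, adjusted p = 0.065) at day 3. At day 3 lines 14, 19 and 319 had 0.38, 0.38 and 0.41 against controls of their own background. The day 3 difference passed the test in 4 of 13 alternatives, with an adjusted p of 0.0040 by DESeq2, 0.036 with day 3 fitted alone, 0.037 without knockout replicate 2 and 0.0086 without the line 19 sample of day 2, a fit in which 2 of the 41 genes and 15.9% of all genes changed at day 3. The shares of all genes were 11.3% by DESeq2, 15.1% with day 3 alone and 5.75% without knockout replicate 2. Over all 13 alternatives the log2 fold change ran from 0.35 to 0.44.

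From day 0 to day 2 Zw10 fell in both genotypes, at -0.59 (adjusted p = 0.0013) in controls and -0.51 (adjusted p = 0.0033) in knockouts, in 13 and 12 of 13 alternatives. Kntc1 did the reverse. In the controls, Kntc1 was counted at 91.6, 94.2 and 92.0 CPM at day 0, 149, 157 and 161 at day 2 and 127, 127 and 111 at day 3. In the knockouts, Kntc1 stood at 87.5, 106 and 119.8 CPM at day 0, 139, 53.5 and 186 at day 2 and 104, 105 and 115 at day 3. In 5 of the 6 series Kntc1 was highest at day 2, and in line 19 it was lowest then. Kntc1 rose in controls at 0.74 (adjusted p = 0.043) and had 0.25 (adjusted p = 0.5) in knockouts. Without the line 19 sample of day 2 it rose in both, at 0.77 (adjusted p = 7.9e-05) and 0.63 (adjusted p = 0.0011). Zwilch measured 119, 113 and 130.4 CPM in the day 0 controls, 119.6, 134 and 139 in those of day 2 and 84.3, 82.7 and 88.4 in those of day 3. Knockout levels of Zwilch were 117, 133 and 134 CPM at day 0, 107, 74.1 and 166 at day 2 and 66.0, 76.4 and 103 at day 3. Zwilch fell from day 2 to day 3 in the controls, at -0.62 (adjusted p = 0.022), and had -0.48 (adjusted p = 0.052) in the knockouts. Without the line 19 sample of day 2 the knockout value was -0.69 (adjusted p = 0.0012). The ratio of Kntc1 to Zw10, per length and on the log2 scale, was computed after these values were seen. It was between -1.22 and -0.89 in all 6 samples of day 0, between 0.05 and 0.43 in 5 samples of day 2 and -1.65 in line 19, and between -0.74 and -0.01 at day 3. At day 3 it was -0.30 to -0.01 in controls and -0.74 to -0.65 in knockouts. Zw10 alone already lay apart between genotypes at that day, so this ratio adds no separate support.

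**Figure D4:**
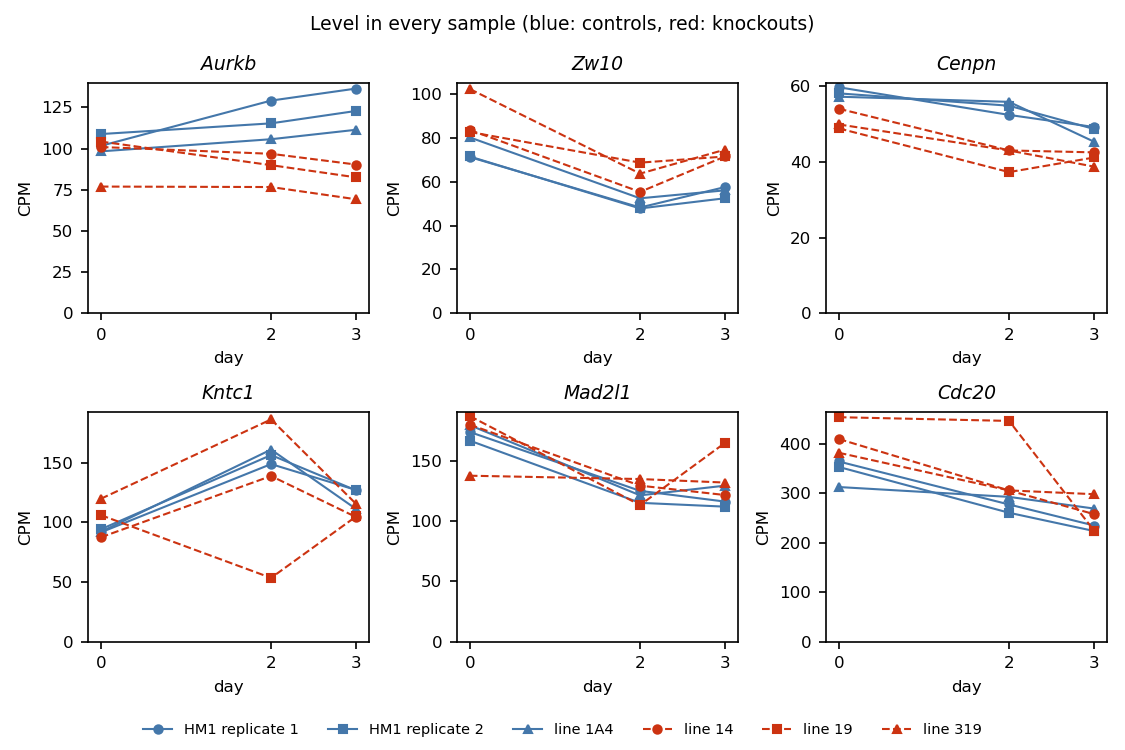
CPM of 6 genes in each of the 18 samples against the day, with controls as solid blue lines, knockouts as dashed red lines and 1 symbol a line or replicate. Aurkb controls and knockouts part at days 2 and 3, Zw10 knockouts and Cenpn controls stay on top throughout, and Kntc1 peaks at day 2 in every series but line 19.

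Since Kntc1 and Zw10 moved in opposite directions over the same days, the stretches just upstream of their starts are shown beside that of Cdc20, the most abundant of the 41. Cell cycle promoters often carry the element TTTGAA or TTCGAA, called CHR, and CCAAT boxes, while GCGGGAA is a form of the E2F site. The sequences run 5′ to 3′ on the gene's strand, are the 250 bases before the RefSeq start on GRCm38.p6, and have matches to these motifs on either strand in capitals.
Kntc1, chr5:123749476-123749725, plus strand: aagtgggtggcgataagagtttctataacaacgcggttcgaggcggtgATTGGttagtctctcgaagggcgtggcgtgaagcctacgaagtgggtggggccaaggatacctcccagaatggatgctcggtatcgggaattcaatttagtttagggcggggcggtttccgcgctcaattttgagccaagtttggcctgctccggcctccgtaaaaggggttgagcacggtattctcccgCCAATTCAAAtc
Zw10, chr9:49055331-49055580, plus strand: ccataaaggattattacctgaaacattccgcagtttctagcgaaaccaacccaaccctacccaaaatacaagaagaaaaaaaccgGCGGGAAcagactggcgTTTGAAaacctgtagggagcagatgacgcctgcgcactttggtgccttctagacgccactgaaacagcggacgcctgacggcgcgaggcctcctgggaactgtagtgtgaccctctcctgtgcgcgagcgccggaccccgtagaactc
Cdc20, chr4:118437344-118437593, minus strand: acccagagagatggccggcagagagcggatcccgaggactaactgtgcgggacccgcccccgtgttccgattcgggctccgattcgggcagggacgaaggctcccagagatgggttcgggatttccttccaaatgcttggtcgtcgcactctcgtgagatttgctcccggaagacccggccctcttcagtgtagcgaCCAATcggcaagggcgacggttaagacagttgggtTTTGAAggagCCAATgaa

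In Kntc1 and Cdc20 a CHR match lies close to the start, its first base 8 and 18 bases before it. In Kntc1 it shares 1 base with a CCAAT box, and Kntc1 and Cdc20 each hold 2 CCAAT boxes. Zw10 holds a CHR match 148 bases and a GCGGGAA match 165 bases before the start and no CCAAT in this window. Promoter windows of 300 bases, 250 before and 50 after the start, were found in RefSeq for 36 of the 41 genes, with 41 windows in all. Zwilch, Spc24, Nsl1, Incenp and Aurkb had none in the table. TTTGAA or TTCGAA was present in 48.8% of the 41 windows and in 19.2% of all 32851 windows, CCAAT in 70.7% and 37.4%, and GCGGGAA in 24.4% and 4.6%. Members with a CHR match (19) had a median log2 fold change of -0.10 from day 0 to day 2 in controls and those without (17) had -0.31, and over day 2 to day 3 the medians were -0.19 and -0.10. In knockouts the same medians were -0.21 and -0.23, then -0.19 and 0.05. A match in these letters is a description of the window only.

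CENP-E and CENP-F, encoded by transcripts of 7910 and 11130 nt, showed no change that passed the test in any comparison. Cenpe had 0.02, -0.08 and 0.14 and Cenpf 0.02, -0.37 and 0.11 between genotypes at days 0, 2 and 3. In line 19 at day 2 Cenpf was at 114 CPM, with 236 to 334 CPM in the other 5 samples, and without it the day 2 difference of Cenpf was -0.04 (adjusted p = 0.92).

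Of the 7 checkpoint genes, Cdc20 lay higher in the knockouts without overlap at days 0 and 2, Bub3 higher at day 0, and Mad1l1 lower at day 0 and higher at day 3. Those that changed between days with all samples in the fit went down. None passed edgeR's test between genotypes at any day, and DESeq2 called 0. At days 0, 2 and 3, 0, 1 and 0 had an unadjusted p below 0.05, beside 1946, 3735 and 4002 of all 18273 genes. Bub1b encodes BubR1, a part of the complex that traps Cdc20. In the controls, Bub1b was counted at 315, 316 and 389 CPM at day 0, 311, 308 and 357 at day 2 and 250.3, 241 and 267 at day 3. In the knockouts, Bub1b stood at 369.5, 402 and 380.4 CPM at day 0, 305, 209 and 369 at day 2 and 228, 217 and 246 at day 3. The lowest values of Bub1b were those of day 3 in controls, and in knockouts they were those of day 3 and of line 19 at day 2. Its genotype differences were 0.19, -0.16 and -0.13 on the log2 scale (adjusted p = 0.77, 0.57 and 0.64). From day 0 to day 2 it fell in knockouts at -0.40 (adjusted p = 0.04), beside -0.06 (adjusted p = 0.78) in controls, and the knockout value was -0.21 (adjusted p = 0.087) without the line 19 sample.

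Mad2l1 encodes Mad2, which changes shape at unattached kinetochores and then binds Cdc20. Mad2l1 measured 174, 167 and 179.8 CPM in the day 0 controls, 125, 115 and 121 in those of day 2 and 116, 112 and 129.6 in those of day 3. Knockout levels of Mad2l1 were 180.2, 187 and 138 CPM at day 0, 129.5, 113 and 135 at day 2 and 122, 165 and 132 at day 3. All day 2 and day 3 controls were below all day 0 controls, and line 319 began lower than the other knockouts. Mad2l1 fell from day 0 to day 2 at -0.53 (adjusted p = 0.011) in controls and -0.42 (adjusted p = 0.036) in knockouts, the latter -0.32 (adjusted p = 0.083) without line 19 at day 2. Over day 2 to day 3 it had -0.02 (adjusted p = 0.96) and 0.15 (adjusted p = 0.46). Ttk encodes Mps1, the kinase that starts the checkpoint signal on Knl1. In the controls, Ttk was counted at 121, 116 and 132 CPM at day 0, 91.8, 93.3 and 95.4 at day 2 and 83.3, 82.4 and 86.6 at day 3. In the knockouts, Ttk stood at 129.9, 143 and 137 CPM at day 0, 96.4, 75.1 and 124 at day 2 and 78.9, 98.7 and 109.9 at day 3. Every series held less Ttk at day 2 than at day 0, and the decrease passed the test in controls (-0.39 (adjusted p = 0.043)) and in knockouts (-0.48 (adjusted p = 0.016)), in 5 and 10 of 13 alternatives. The knockout decrease was -0.32 (adjusted p = 0.033) without line 19 at day 2.

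Cdc20 activates the anaphase promoting complex once the checkpoint is silenced. It lies at chr4:118432901-118437352, minus strand. Cdc20 measured 364, 353 and 313 CPM in the day 0 controls, 277, 261 and 293 in those of day 2 and 235, 224 and 269 in those of day 3. Knockout levels of Cdc20 were 410.1, 454 and 382 CPM at day 0, 306, 447 and 306 at day 2 and 258, 224 and 298 at day 3. Knockouts were above controls without overlap at days 0 and 2 and overlapped with them at day 3. The genotype differences of Cdc20 were 0.27, 0.35 and 0.10 on the log2 scale (adjusted p = 0.63, 0.24 and 0.77), and 0.13 (adjusted p = 0.61) at day 2 without line 19. It was lower at day 2 than at day 0 and lower at day 3 than at day 2 in all 6 series. The decrease from day 2 to day 3 passed the test in knockouts at -0.44 (adjusted p = 0.048), and was -0.24 (adjusted p = 0.14) without the line 19 sample of day 2, which held 447 CPM. Controls had -0.31 (adjusted p = 0.15) and -0.19 (adjusted p = 0.45) over the 2 steps. With all samples in the fit, Bub1, Bub3 and Mad1l1 passed the test at neither step in either genotype. Their log2 fold changes between genotypes lay between -0.18 and 0.27. Without the line 19 sample of day 2, Bub1 fell from day 2 to day 3 in knockouts, at -0.55 (adjusted p = 0.0061). Bub3 fell over that step in controls, at -0.34 (adjusted p = 0.027). Mad1l1 fell at -0.31 and -0.37 over the 2 steps in controls (adjusted p = 0.014 and 0.0087) and at -0.38 (adjusted p = 0.011) from day 0 to day 2 in knockouts.

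Seen as a whole, the steps between days lowered some of the 41 genes and raised few. From day 0 to day 2, 7 of the 41 changed in controls, where 35.2% of all genes did. Kntc1 and Cenpk rose (19.7% of all genes rose), and Zw10, Mad2l1, Cenpl, Ttk and Incenp fell (15.5% fell). Over the same step 10 changed in knockouts, all lower, where 35.9% of all genes changed and 15.1% fell: Sgo2a, Sgo1, Zw10, Ttk, Mad2l1, Cenpu, Cenpl, Bub1b, Cenpn and Incenp. From day 2 to day 3, 4 were lower in controls (21.4% of all genes changed and 8.92% fell), namely Zwilch, Cenpo, Cenpp and Incenp. In knockouts 5 were lower (33.6% of all genes changed and 16.0% fell), namely Cenpo, Nsl1, Incenp, Cdca8 and Cdc20. Counted in both directions, 17.1% and 9.76% of the 41 changed in controls and 24.4% and 12.2% in knockouts, below the share of all genes at each step. Counted as decreases, the share of the 41 was above that of all genes in knockouts from day 0 to day 2 and in controls from day 2 to day 3, and below it in the other 2 cases. The Cenpn decrease in knockouts was -0.31 (adjusted p = 0.045) and -0.22 (adjusted p = 0.07) without line 19 at day 2. The medians of the 41 were -0.20 and -0.19 in controls and -0.21 and -0.19 in knockouts, beside 0.01, 0.00, 0.06 and 0.00 over all genes. In sign, 16 genes were lower at day 2 than at day 0 in all 6 series and 3 higher, 9 were lower and 2 higher at day 3 than at day 2, and 22 were lower and 1, Dsn1, higher at day 3 than at day 0. The share of all genes with 1 sign in all 6 series is not given here, so these counts do not set the 41 apart.

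**Figure D5:**
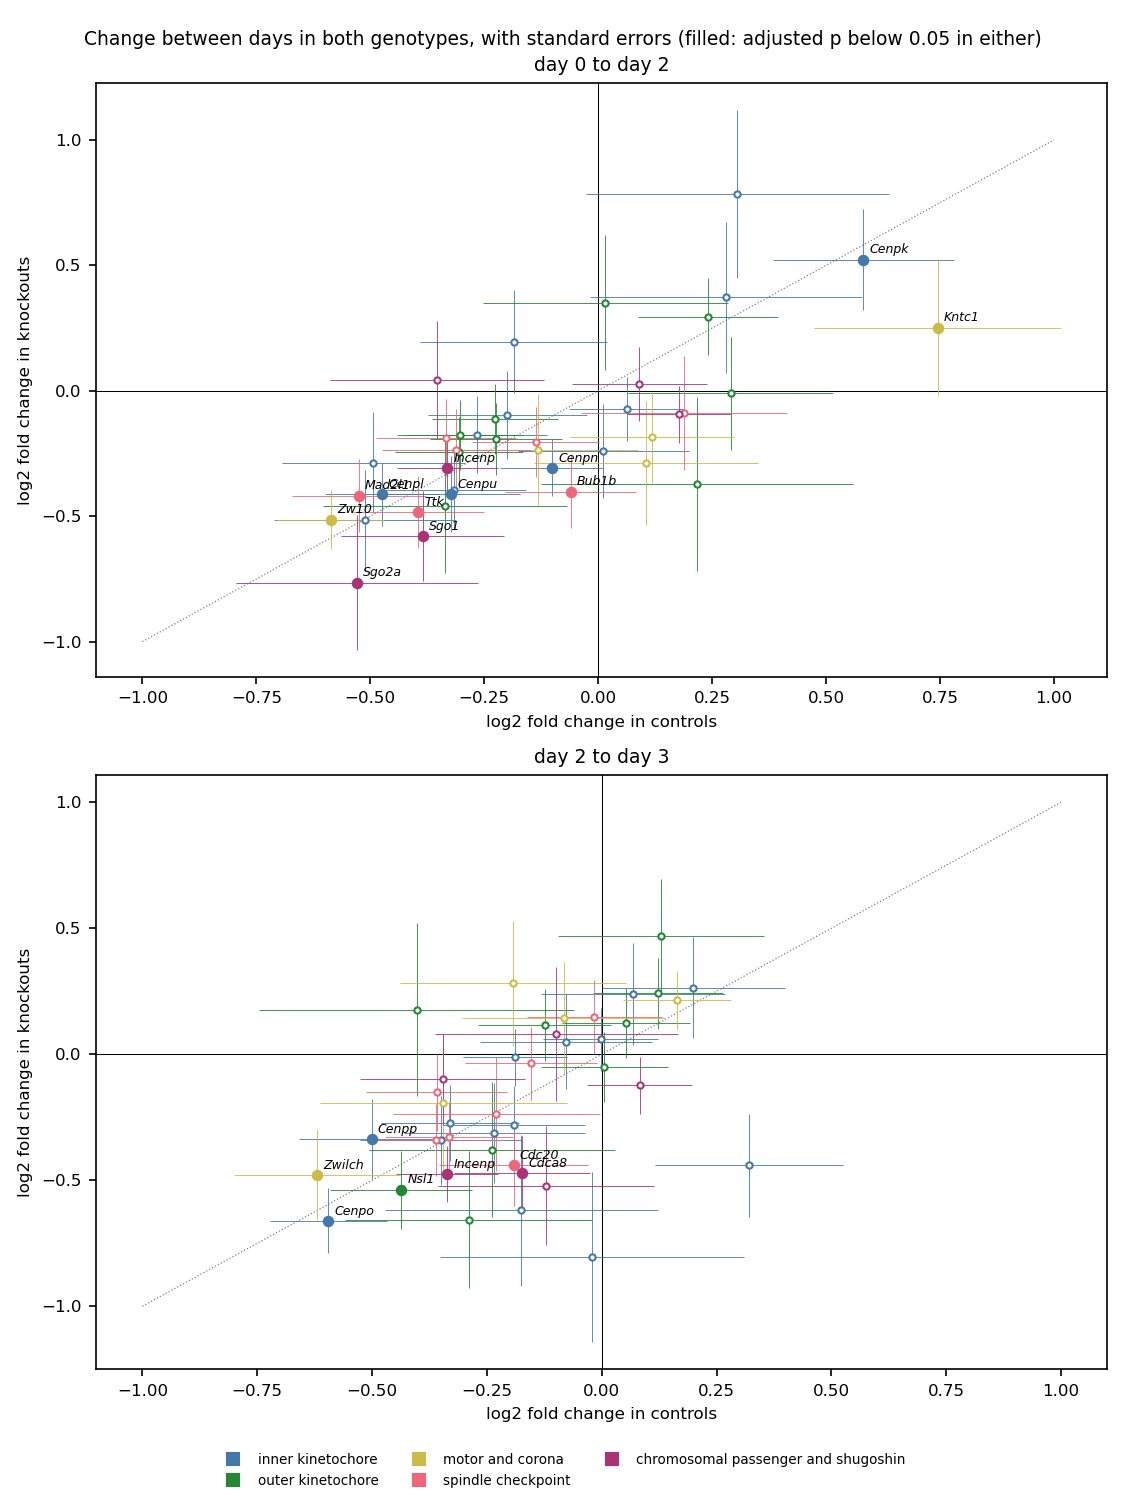
Log2 fold change of the 41 genes in knockouts (vertical axis) against that in controls (horizontal axis) for both steps between days, with standard errors as bars, colours by role and a dotted line of equal change. Filled, named points passed the test in either genotype, and all of them but Kntc1 and Cenpk lie below 0 in both.

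The number of genes past the test at these steps depended on which samples were in the fit. Without the line 19 sample of day 2 alone, 15 of the 41 changed from day 0 to day 2 in controls (46.1% of all genes) and 11 in knockouts (38.8%), and 14 and 9 changed from day 2 to day 3 (32.4% and 32.0%). DESeq2 called 9 in knockouts from day 2 to day 3, with 39.4% of all genes. Shares of all genes by direction are not given here for the fit without that sample. Of the calls among the 41 in that fit, 13 and 9 were lower over the first step and 13 and 8 over the second. Birc5 (log2 fold change -0.33 (adjusted p = 0.011) in controls), Mad1l1 (-0.31 (adjusted p = 0.014)) and Bub1b (-0.37 (adjusted p = 0.0029) from day 2 to day 3) were among those added. Zw10 rose from day 2 to day 3 in the knockouts in that fit, at 0.30 (adjusted p = 0.022). Leaving out control replicate 1, 2 or 3 left 1 of the 7 changes in controls from day 0 to day 2, which was Zw10, and 0, 0 and 1 from day 2 to day 3. The share of all genes called was lower in those fits too, at 15.3%, 17.1% and 23.9% for the first step and 6.78%, 6.57% and 12.7% for the second. The directions of the calls made with all samples in the fit held in 13 of 13 alternatives.

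Genes around the 41 were read from lists of related machinery. Of the 10 Y-complex genes, Nup133 changed between genotypes at every day, by -3.19, -3.28 and -3.40 on the log2 scale (adjusted p = 2.1e-05, 3.2e-05 and 2.0e-05), and edgeR called no other of the 10. Without the line 19 sample of day 2 it called 2 of the 10 at day 2 (2.01% of all genes) and 3 at day 3 (15.9%), Nup133 included. Between days Nup43 fell from day 2 to day 3 in controls (-0.70 (adjusted p = 0.0015)) and in knockouts (-0.82 (adjusted p = 3.5e-04)), as did Nup85 (-0.47 (adjusted p = 0.012) and -0.40 (adjusted p = 0.021), the latter -0.26 (adjusted p = 0.025) without line 19 at day 2). Sec13 fell from day 0 to day 2 (-0.43 (adjusted p = 0.0095) and -0.33 (adjusted p = 0.037)).

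Among 29 further centromere and kinetochore genes, 3 changed between genotypes, all at day 3 (5.2% of all genes), and 9 did so at day 3 without the line 19 sample of day 2 (15.9% of all genes). Trip13, an ATPase that recycles Mad2, was higher in the knockouts at 0.57 (adjusted p = 0.042). Oip5, which helps load new CENP-A, was lower at -0.57 (adjusted p = 0.039), and Spdl1, the adaptor between RZZ and dynein, was lower at -0.43 (adjusted p = 0.045). From day 0 to day 2, 2 rose and 6 fell in controls, where 19.7% of all genes rose and 15.5% fell. Sgo2b, a shugoshin related to Sgo2a, fell the most, by 3.58 on the log2 scale in controls and 3.41 in knockouts (adjusted p = 1.6e-05 and 2.8e-05). Clip1, a protein of microtubule plus ends, rose by 1.80 and 1.52 (adjusted p = 1.1e-05 and 3.6e-05). Sgo2a itself had -0.53 and -0.76.

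Of 30 mitosis genes, 1 changed between genotypes, Pttg1 (securin), higher at day 2 at 1.28 (adjusted p = 0.048), where 1.6% of all genes changed. With the line 19 sample of day 2 left out, Pttg1 had 0.64 (adjusted p = 0.067), the list had 0 changes at that day by edgeR, with 3 at an unadjusted p below 0.05, and 5 were lower at day 3, where 15.9% of all genes changed in either direction. The share of all genes that were lower is not given here for that fit. Over the steps 1 rose and 2 fell from day 0 to day 2 in controls (19.7% and 15.5% of all genes), and 1 rose and 4 fell from day 2 to day 3 (12.5% and 8.92%). Mybl2, a transcription factor that binds cell cycle promoters, fell at both steps in both genotypes, at -1.28 and -0.94 in controls and -1.77 and -1.33 in knockouts (adjusted p = 0.0012, 0.014, 9.5e-05 and 0.0012). Of 30 DNA replication genes, 1 rose and 11 fell from day 0 to day 2 in controls, with a list median of -0.34, and 1 rose and 4 fell from day 2 to day 3, beside the same shares of all genes. Ccne1 (cyclin E1) fell in controls at -0.68 (adjusted p = 0.0064) and then -0.85 (adjusted p = 0.0025). In knockouts Ccne1 fell at -0.68 (adjusted p = 0.0062) and then -0.83 (adjusted p = 0.0022). Mcm7, a subunit of the replicative helicase, was higher in the knockouts at day 2 at 0.65 (adjusted p = 0.022), and at 0.53 (adjusted p = 0.018) without line 19.

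Of 23 genes of the anaphase promoting complex and cohesin, 0 changed between genotypes at any day by edgeR. At days 0, 2 and 3, 1, 5 and 1 had an unadjusted p below 0.05, beside 1946, 3735 and 4002 of all 18273 genes. Stag2, a cohesin subunit, rose from day 0 to day 2 in controls (0.98 (adjusted p = 0.018)) and knockouts (1.08 (adjusted p = 0.011)). Anapc10 fell over that step in controls (-0.92 (adjusted p = 1.3e-04)) and knockouts (-0.77 (adjusted p = 5.3e-04)). Fbxo5 (Emi1), an inhibitor of the anaphase promoting complex, fell from day 2 to day 3 in controls at -0.80 (adjusted p = 0.0022) and in knockouts at -0.60 (adjusted p = 0.0097). Of 14 cell cycle inhibitors, Cdkn2a was higher in the knockouts at day 2 at 1.45 (adjusted p = 0.04), and had 1.01 (adjusted p = 0.084) without line 19. Cdkn2c, which restrains the G1 kinases, rose from day 2 to day 3 in controls (1.57 (adjusted p = 0.0055)) and knockouts (2.41 (adjusted p = 2.8e-04)). Neural progenitor markers summed to 242 to 293 CPM in the day 3 controls and 237 to 902 CPM in the day 3 knockouts, with 1 of the 6 markers below 1 CPM in every sample of either group. Their part in the Aurkb difference at that day was not tested.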

How the data were processed

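Polyadenylated RNA was read with stranded TruSeq libraries in 18 samples, each sequenced as 4 technical replicates. The deposited values are raw read counts per Ensembl transcript. The submitters' processing notes name bcl2fastq 2.17.1.14, STAR 2.4.0k, SAMtools, HTSeq and mm10, without their settings. Reads were counted for each transcript they overlapped, so 1 transcript, the one with the highest total, stood for a gene, named through GENCODE M21. Technical replicates were added up. edgeR 4.0.16 (R 4.3.3, limma 3.58.1) used TMM scaling, filterByExpr and a robust quasi-likelihood fit of 6 groups and genetic background, with 11 residual degrees of freedom. It tested 18273 genes, adjusted over all of them, at 0.05. CPM use TMM scaling. The fit was also run on simulated counts with the same dispersion for every gene and no deviating sample. That run cannot show how the fit does on these data.

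The alternatives were DESeq2 1.42.0, its size factors, no filter, transcripts added up, HM1-derived lines only, each day alone, a replicate block, and leaving out replicates or the line 19 sample of day 2. The genes shown in every sample are the 8 with the lowest p between genotypes, 1 or 2 fixed representatives per role, and the 3 largest changes called at each step in each genotype. From related lists, at most 3 called genes per comparison are named. The genes and lists were chosen with earlier results of these data known. The 6 series of samples pair the days by construction: in 16 of 18 pairs of same-series samples, the deviations from their group's mean correlated above 0.1.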

Additional observations from a re-analysis of the deposited data

How the results depend on the processing

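With a replicate block for the 6 series, which pairs days, the changes from day 0 to day 2 and from day 2 to day 3 numbered 6 and 4 in controls and 8 and 4 in knockouts, and 0 for both genotype differences of the steps, against 7 and 4, 10 and 5, and 0. Between genotypes no block was fitted: lines of both genotypes share only their origin, HM1 or blastocyst, which is already a term of the fit, and no label pairs single control and knockout samples. In the same order of steps, without a filter the counts were 2 and 2 in controls and 2 and 1 in knockouts. Of all 30658 genes in that fit, 5629 and 3227 were called in controls and 5630 and 5223 in knockouts. With HM1-derived lines only the counts were 2 and 2 in controls and 9 from day 2 to day 3 in knockouts. Of all 18512 genes in that fit, 5665, 3489 and 6782 were called. Without the line 19 sample of day 2 the counts were 15 and 14 in controls (46.1% and 32.4% of all genes). They were 9 from day 2 to day 3 in knockouts (32.0%) and 2 between genotypes at day 3 (15.9%). DESeq2 gave 3 and 2 between genotypes at days 2 and 3 (8.13% and 11.3% of the genes it tested). It gave 9 from day 2 to day 3 in knockouts (39.4%), and day 3 fitted alone gave 2 (15.1%). Leaving out 1 replicate at a time gave 0 to 1 and 0 to 2 between genotypes at days 2 and 3, 1 to 17 and 0 to 12 in controls, and 2 to 16 and 2 to 12 in knockouts. Between genotypes, all genes called in these fits ran from 22 of 18532 to 1374 of 18690 at day 2. At day 3 they ran from 17 of 18492 to 2019 of 18690. Shares of all genes are not given here for the replicate block, nor for the steps between days without 1 knockout replicate. Of the single genes, no called direction reversed under any alternative. The causes of these shifts were not tested. Total gene counts of 16466724 to 54386795 a sample put the lowest member value at 9.67 CPM, and the spread between samples is part of every interval given.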
